A study of Homo sapiens with 6 samples.

Results

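MALAT1, TALAM1 and NEAT1 are long noncoding RNA (lncRNA) genes of chromosome 11, and they were examined here in the RNA-seq libraries of HT-1376 cells, an established human bladder carcinoma line. The members were picked by symbol, with TALAM1 taken as the antisense gene of MALAT1, and make up 3 of the 63241 genes listed. All 3 were among the 7207 genes that passed the filter on low counts. The cells are labelled WT in the siNC group, which received a non-targeting siRNA, and SHMT2 knockdown in the siSHMT2 group, which received a single siRNA against SHMT2, the mitochondrial serine hydroxymethyltransferase. Both groups were transfected with a Lipofectamine reagent and collected 24 h later, with 3 libraries in each. RNA was captured with mRNA beads, and the kit kept the strand. The study describes the replicates as biological, while the labels do not tie them to separate cultures, so a p-value here measures the spread between these libraries.

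MALAT1 is retained in the nucleus and gathers in nuclear speckles, the bodies that store splicing factors, and it is known as a very abundant transcript in many cancer lines. NEAT1 is transcribed from the neighbouring gene and is the scaffold of paraspeckles, nuclear bodies built around the proteins NONO, SFPQ and PSPC1. TALAM1 is read from the opposite strand of the MALAT1 gene and has been described as a natural antisense RNA that helps MALAT1 to mature. The 3′ ends of MALAT1 and of the long NEAT1 isoform are not made by ordinary polyadenylation. RNase P cuts them in front of a tRNA-like small RNA, and the end is protected by a triple helix that uses a genome-encoded run of adenines.

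The positions below are those of GRCh38 with GENCODE release 44. NEAT1 (ENSG00000245532) lies on the plus strand of chromosome 11 from 65422774 to 65445540. MALAT1 (ENSG00000251562) lies downstream on the same strand from 65497640 to 65508073. TALAM1 (ENSG00000289740) is a gene of 1 exon on the minus strand from 65499312 to 65507432, and its 8121 bases all fall within the exons of MALAT1, of which they cover 77.8%. In NEAT1 the annotation has 0 genes on the minus strand. A second minus-strand lncRNA gene, ENSG00000270117, covers 5.85% of the MALAT1 exons and had 0 counts in each of the 6 libraries.

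**Figure D1:**
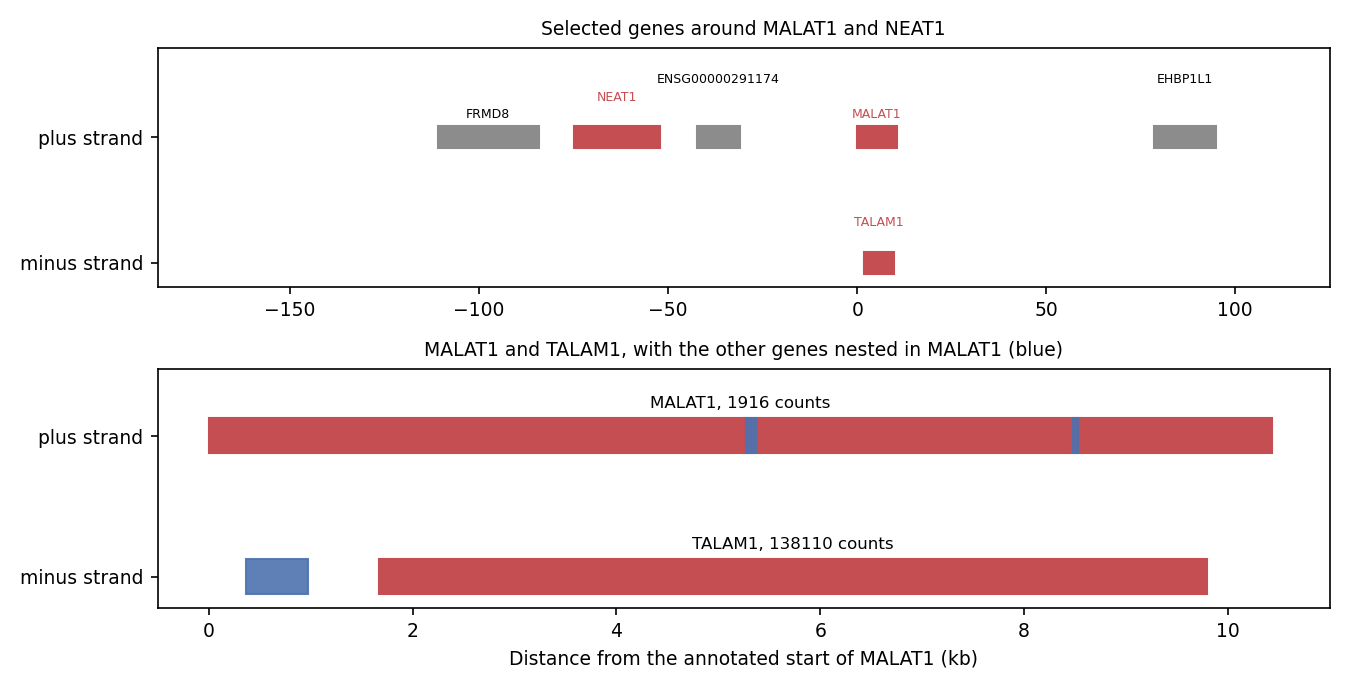
Genes around MALAT1 and NEAT1 by strand, with the distance from the annotated start of MALAT1 in kb on the x axis. The upper panel holds the members (red) and a selection of their neighbours (grey), and the lower panel shows that TALAM1, with 138110 counts, lies inside MALAT1, with 1916 counts.

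The adenine-rich 3′ ends are shown because bead capture depends on runs of A. Capitals mark runs of at least 4 A, or of at least 4 T on the minus strand. The first line gives the 30 bases of MALAT1 just before the nested small RNA gene ENSG00000274072, at chr11:65506087-65506116 on the plus strand. The second gives the same 30 bases as TALAM1 reads them on the minus strand, and the third gives the last 30 bases of NEAT1, at chr11:65445511-65445540, just before the small RNA gene ENSG00000275948. All were read from the GRCh38 genome, 5′ to 3′.
MALAT1: ttttctagcttAAAAAAAAAAAAAgcAAAA
TALAM1: TTTTgcTTTTTTTTTTTTTaagctagaaaa
NEAT1: ctgtgaaagagtgagcaggAAAAAgcAAAA
The run of 13 A in the first line was the longest A run of the MALAT1 gene. Both plus-strand ends close with the same gcAAAA. The longest A run on the strand of TALAM1 also had 13 bases and lay elsewhere, from base 3112 of the gene, and the longest of NEAT1 had 22 bases and lay from base 18070. Both small RNA genes behind these ends had 0 counts in every library. So did all 7 genes nested in NEAT1 or MALAT1 other than TALAM1, a count that includes ENSG00000274072 but not ENSG00000275948, which lies just outside NEAT1.

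The libraries held 533689 to 890574 counts, without normalization, and siSHMT2 replicate 1 was the smallest. These totals are a small part of the sequenced reads that the study reports per sample, and the sources used here do not say why. Shares and ranks below therefore refer to the deposited counts. SHMT2 itself had 28, 15 and 20 counts in siNC, by replicate number, against 9, 2 and 5 in siSHMT2. The log2 fold change, here and below given ± its standard error, was -1.78 ± 0.48, and the Benjamini-Hochberg adjusted p over the 7207 genes was 0.93 in the quasi-likelihood test of edgeR. The study itself reports a significant decrease of SHMT2 by RT-qPCR, by Western blot and in FPKM. The epithelial markers fitted the label as a set. All 7 of KRT8, KRT18, KRT19, KRT7, KRT5, EPCAM and CDH1 were counted and together took 0.492% to 0.547% of a library. EPCAM was the lowest of them, with 7 to 19 counts a library, near the 5 to 18 of the fibroblast marker COL1A2. The 3 fibroblast markers together took at most 0.0027%, and PTPRC, CD3E and VWF were at 0 in every library. CD68, also of leukocytes, had 0 to 2 counts a library, and PECAM1, of endothelium, had 0 to 1.

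TALAM1 held far more counts than the gene it overlaps. Replicates 1 to 3 of siNC held 23972, 20533 and 25603 counts, and those of siSHMT2 held 19741, 25010 and 23251. In each library it ranked at 2 by count among all genes listed. As a share of the library total this was 2.93%, 3.11% and 2.87% in siNC and 3.70%, 3.05% and 2.85% in siSHMT2. The siSHMT2 replicate 1 lay above the other 5 libraries and the other siSHMT2 replicates lay inside or below the siNC range, so the groups overlapped. The 95% Wilson interval of the share was 3.65% to 3.75% in that library and 3.07% to 3.15% in siNC replicate 2, the next highest. These intervals cover counting error alone.

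MALAT1, the sense gene, was listed with far fewer counts than TALAM1, though above the median of 25 counts over the tested genes. It held 342, 229 and 358 counts in siNC against 228, 311 and 448 in siSHMT2. The share of the library was 0.0418%, 0.0347% and 0.0402% in siNC and 0.0427%, 0.0380% and 0.0550% in siSHMT2, and MALAT1 ranked between 246 and 408 by count. The siSHMT2 replicate 3 was the highest, with a 95% Wilson interval of 0.0501% to 0.0603% that lay above those of the other 5 libraries, whose upper bounds reached 0.0486%. The other siSHMT2 replicates lay within or just above the siNC range.

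NEAT1 was counted at a level near that of MALAT1. It had 240, 161 and 262 counts in siNC and 179, 240 and 289 in siSHMT2. The share was 0.0293%, 0.0244% and 0.0294% in siNC and 0.0335%, 0.0293% and 0.0355% in siSHMT2. The siSHMT2 replicates 1 and 3 were the highest, while siSHMT2 replicate 2 fell among the siNC libraries.

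**Figure D2:**
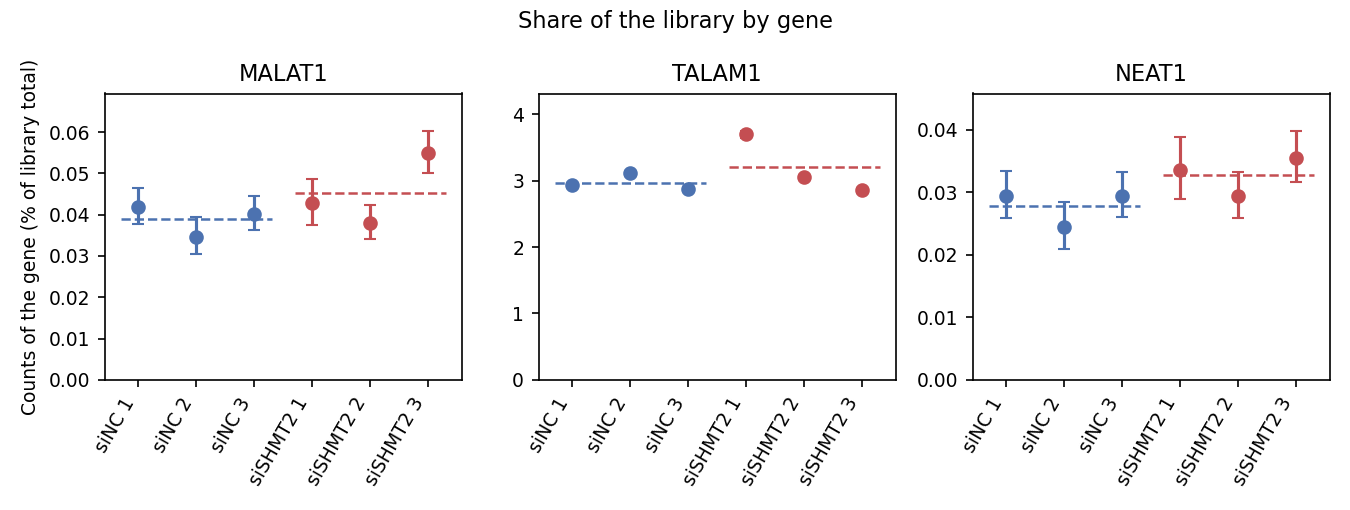
Counts of each gene as a percent of the library total (y axis, from 0) in the 6 libraries (x axis), with 95% Wilson intervals as bars and group means as dashed lines. TALAM1 was highest in siSHMT2 replicate 1 at 3.70% and MALAT1 in siSHMT2 replicate 3 at 0.0550%.

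Per length, the order of the genes was the same in every library, with TALAM1 first, then MALAT1 and then NEAT1. FPKM values divide a count by the length of the gene and the total of the library, and are given as mean ± SD with n = 3 a group. TALAM1 stood at 3659 ± 150.02 in siNC against 3943 ± 544 in siSHMT2. MALAT1 stood at 37.3 ± 3.59 against 43.3 ± 8.40, and NEAT1 at 12.2 ± 1.27 against 14.4 ± 1.38, in the same order of groups. No neighbours in this order overlapped, since the FPKM values of MALAT1 ranged from 33.2 to 52.7 and those of NEAT1 from 10.7 to 15.6. The listed length of NEAT1, 22743 bases, is that of the long isoform, and the counts do not separate the short isoform from it.

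The ratio of TALAM1 to MALAT1 counts was 70.1, 89.7 and 71.5 in the siNC replicates 1 to 3. It was 86.6, 80.4 and 51.9 in the siSHMT2 replicates 1 to 3. The ratio of siSHMT2 replicate 3 was the lowest, and its counting interval of 47.3 to 57.0 (95%, Poisson counts) did not reach those of the other libraries, the lowest of which began at 63.0. The remaining siSHMT2 values lay within the siNC range. The share of the joint counts listed under MALAT1 was accordingly 1.1% to 1.41% in siNC and 1.14% to 1.89% in siSHMT2.

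The groups did not differ in this ratio beyond the spread of the libraries. The mean log2 ratio was 6.26 ± 0.20 (SD, n = 3) for siNC against 6.15 ± 0.40 (SD, n = 3) for siSHMT2, a difference of -0.10 (two-sided exact permutation test, p = 0.8, where 3 libraries against 3 allow no p below 0.1). Without siSHMT2 replicate 3 the difference was 0.12, and without siNC replicate 2 it was 0.0084. The ratio of NEAT1 to MALAT1 was 0.702, 0.703 and 0.732 in siNC and 0.785, 0.772 and 0.645 in siSHMT2. The siSHMT2 replicate 3 was again the lowest. The difference of the mean log2 ratio was 0.038 (two-sided exact permutation test, p = 0.8), and it was -0.013 without siSHMT2 replicate 1.

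**Figure D3:**
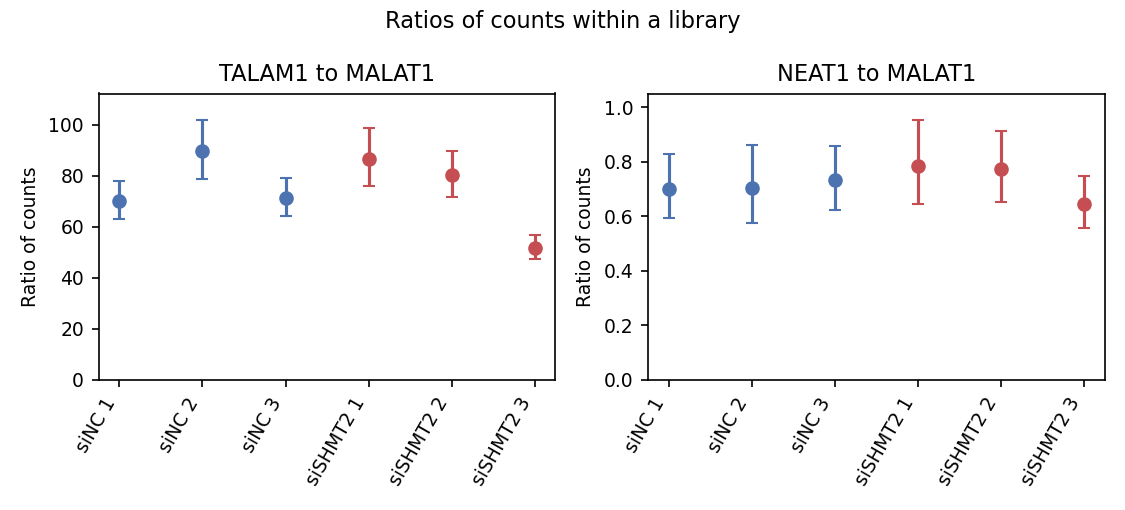
Ratio of counts (y axis, from 0) of TALAM1 to MALAT1 and of NEAT1 to MALAT1 in the 6 libraries (x axis), with 95% counting intervals as bars. The ratio of TALAM1 to MALAT1 was 51.9 in siSHMT2 replicate 3 and between 70.1 and 89.7 in the others.

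The division of counts between the strands was set beside that of other loci. Each protein-coding gene was paired with any lncRNA gene that shares 100 or more exonic bases with it on the other strand, where both genes held 20 or more counts in total. Of 976 such pairs, 588 (60.2%) had more counts under the lncRNA gene, and the median log2 ratio of lncRNA to protein-coding counts was 0.75. With at least 100 counts in each gene the share was 72.5% of 357 pairs, and with an overlap of at least 500 bases it was 75.0% of 541. The log2 ratio of TALAM1 to MALAT1 over all libraries was 6.17, and 18 of the 976 pairs had a larger one. The 20 pairs of lncRNA genes on opposite strands, TALAM1 and MALAT1 included, were compared by the larger count over the smaller. None had a larger ratio than TALAM1 and MALAT1.

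Loci divided both ways, as 383 of the 976 pairs had more counts under the protein-coding gene, or 97 of the 357 with at least 100 counts in each. ENTPD1-AS1, for example, had 36 counts against 4194 for ENTPD1, a pair picked after its values were seen. The overlap of that pair was 5742 bases, or 40.0% of the ENTPD1 exons. Counts are of whole genes, so pairs that share few bases can hold reads from outside the overlap. Summed over all 976 pairs, 77.9% to 79.7% of the counts were listed under the lncRNA, by library. A gene of more than 1 pair entered such a sum with each of its pairs, here and for the 33 pairs below. The next examples were chosen after their values were seen, as the pairs with the most counts among the 33 in which the lncRNA covers at least 50% of the protein-coding exons. PCBP1-AS1 had 25679 counts against 568 for PCBP1, a poly(rC)-binding protein, or 45.2 to 1. ADIRF-AS1 had 46599 counts against 3049 for ADIRF, or 15.3 to 1. The lncRNA held more counts in 29 of these 33 pairs, and in all 10 of those with at least 100 counts in each gene. Over the 33 pairs 95.1% to 96.0% of the joint counts of a library were listed under the lncRNA, against 98.1% to 98.9% under TALAM1 at its own locus. The range of the 33 pairs was 95.4% to 96.0% in siNC and 95.1% to 95.9% in siSHMT2, with siSHMT2 replicate 3 at 95.9%. The strand setting of the counting is not given in the sources used here. Whether the reads listed under TALAM1 came from the antisense RNA or from MALAT1 RNA therefore cannot be told apart from the counts, and the values above are counts listed under each gene, not amounts of each RNA. The strand of the reads is likewise not known for MALAT1, NEAT1 and every other gene named here, including SHMT2, the markers and the lists. Their counts and fold changes are those listed under each gene. For NEAT1 there is no annotated gene under which reads of the other strand would be listed.

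**Figure D4:**
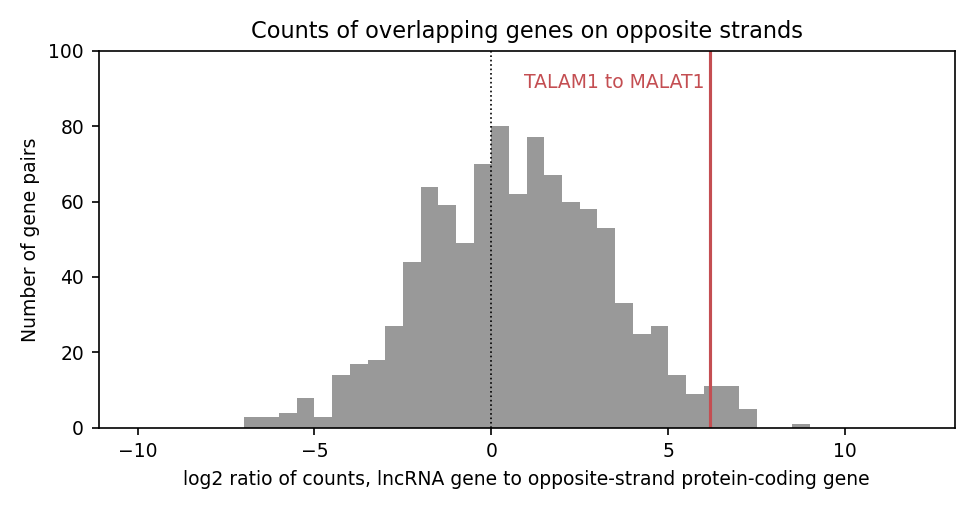
Number of gene pairs (y axis) by the log2 ratio of counts of a lncRNA gene to an overlapping protein-coding gene on the opposite strand (x axis), over 976 pairs, with equal counts as the dotted line. The red line is TALAM1 to MALAT1 at 6.17, with 18 pairs beyond it.

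In siSHMT2 vs. siNC, each of the lncRNAs had a small positive fold change, and none passed the test. MALAT1 stood at a log2 fold change of 0.22 ± 0.13, or 1.16-fold with a 95% interval of 0.976 to 1.39. For NEAT1 the value was 0.24 ± 0.13, or 1.18-fold with an interval of 0.985 to 1.42. For TALAM1 it was 0.11 ± 0.092, or 1.08-fold with an interval of 0.947 to 1.22. The intervals leave room for an increase of up to 1.42-fold. In the same edgeR test the adjusted p was 0.999 for each, and the unadjusted p was 0.090 for MALAT1, 0.071 for NEAT1 and 0.25 for TALAM1. Of all tested genes 0 (0.0%) had an adjusted p under 0.05, while 277 (3.84%) had an unadjusted p under 0.05, 1.94% on the higher and 1.9% on the lower side. DESeq2 on the same genes likewise gave 0 genes at the adjusted and 117 at the unadjusted p. The study itself reports changed genes from DESeq2, with a p-value cutoff that its methods call adjusted and its results do not. Of all tested genes 49.8% had a positive fold change. In bulk libraries a change in the RNA of each cell and a change in the number of cells that hold it cannot be told apart.

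The CPM values, counts relative to the TMM-scaled library size, showed which libraries carried these differences. NEAT1 stood at 299, 267 and 298 in siNC against 348, 313 and 362 in siSHMT2, so that the groups did not overlap (p = 0.1 by exact permutation, two-sided, which is the lowest value 3 against 3 can give). As background, 9.2% of all tested genes had groups that did not overlap, 4.65% with siSHMT2 higher. In FPKM the groups of NEAT1 did overlap (exact permutation test, p = 0.3). MALAT1 stood at a CPM of 426, 380 and 407 in siNC against 443, 405 and 562 in siSHMT2, and the groups overlapped (p = 0.3, exact permutation test). Without siSHMT2 replicate 3 the log2 fold change of MALAT1 was 0.061. For TALAM1 the CPM values were between 29081 and 34038 in siNC and between 29150 and 38329 in siSHMT2 (p = 0.6, exact permutation test). Without siSHMT2 replicate 1 the log2 fold change of TALAM1 was -0.0047, and without siNC replicate 3 it was 0.060. With the counts of MALAT1 and TALAM1 summed into a single gene the log2 fold change was 0.11 and the adjusted p 0.998 (edgeR, as above).

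**Figure D5:**
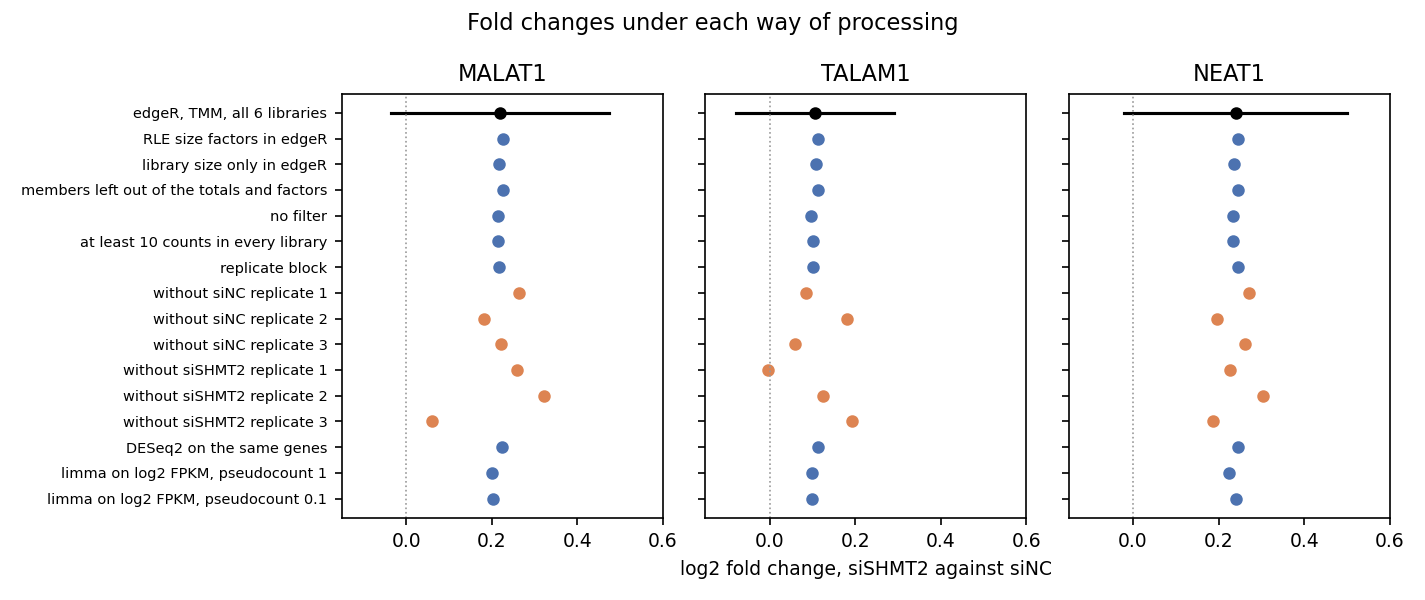
Log2 fold change in siSHMT2 against siNC (x axis) for each gene under each way of processing that keeps MALAT1 and TALAM1 apart (y axis). Black is the value reported, with its 95% interval, blue the alternatives with all 6 libraries and orange those without 1 library. The value of TALAM1 falls to -0.0047 without siSHMT2 replicate 1, and that of MALAT1 to 0.061 without siSHMT2 replicate 3.

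The replicates of each gene varied more than counting alone would give. The coefficient of variation of the TALAM1 share was 4.10% in siNC and 13.8% in siSHMT2, where counting alone would give 0.654% and 0.664%. For MALAT1 it was 9.64% and 19.4%, against 5.68% and 5.51% from counting. For NEAT1 it was 10.4% and 9.60%, against 6.73% and 6.51%. The distance from counting noise depends on the number of counts, so it does not rank the genes by their spread between libraries.

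The other genes of the locus were counted at a much lower level. The annotation has 35 other genes from 100 kb before NEAT1 to 100 kb after MALAT1, of which 12 had at least 20 counts over the 6 libraries. Their highest total was the 474 counts of EHBP1L1, on the plus strand downstream of MALAT1. FRMD8, upstream of NEAT1, had 21, 17 and 25 counts in siNC and 20, 24 and 21 in siSHMT2, at a log2 fold change of 0.20 ± 0.32. ENSG00000291174, a lncRNA gene between NEAT1 and MALAT1, had 92 counts in total at a log2 fold change of -0.52 ± 0.39. None of the neighbours had an unadjusted p under 0.05 in edgeR's test, whose values for the tested ones started at 0.18.

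The genes whose log2 CPM moved most like each lncRNA over the 6 libraries were sought among 1035 genes with a mean of at least 100 counts. For MALAT1 these were SSB, the La protein that binds the 3′ ends of RNA polymerase III transcripts, with a Pearson's r of 0.966, the nuclear import receptor KPNB1 with 0.935 and the splicing factor LUC7L3 with 0.926. NEAT1 came at rank 12 with 0.853. For NEAT1 they were HNRNPM, a nuclear RNA-binding protein, with 0.965, MIR497HG with 0.957 and DNAJC14 with 0.956, and MALAT1 came at rank 17. For TALAM1 they were the mismatch repair gene MSH6 with 0.959, the lymphotoxin receptor LTBR with 0.958 and ENSG00000273175 with 0.954. MALAT1 stood at rank 809 of this list, with an r of -0.300, and NEAT1 at rank 596 with 0.057. These correlations describe 6 libraries that include both groups, and the values of a library share its depth and normalization. The top values are the highest of 1035 genes over only 6 libraries, and no level expected by chance was worked out for them.

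The proteins of the paraspeckles, which NEAT1 scaffolds, gave no call after adjustment. Of the 27 paraspeckle proteins on the list 24 were tested, 15 with a positive and 9 with a negative fold change, and their median log2 fold change was 0.063, against -0.000999 over all tested genes. None had an adjusted p under 0.05, and 3 had an unadjusted p under 0.05, 1 higher and 2 lower in siSHMT2, that is 3 of 24 beside 3.84% of all tested genes. The chromatin remodeller SMARCA4 had 92, 89 and 114 counts in siNC and 99, 121 and 120 in siSHMT2, with a log2 fold change of 0.35 ± 0.17. The RNA-binding protein HNRNPR had 595, 418 and 592 counts in siNC and 263, 394 and 474 in siSHMT2. Its log2 fold change was -0.38 ± 0.11. The study lists HNRNPR among its top regulated genes and reports a significant RT-qPCR change that matched its RNA-seq. HNRNPF, of the same family, had 124, 79 and 142 counts in siNC and 56, 90 and 83 in siSHMT2, at a log2 fold change of -0.44 ± 0.17. The groups did not overlap in log2 CPM for these 3 genes and for RBM7, which makes 4 of 24 (16.7%) beside 9.2% of all tested genes. RBM7, named after its values were seen, was at a log2 fold change of -0.40 ± 0.30. HNRNPA1, the most abundant tested protein of the list after HNRNPR, was at a log2 fold change of -0.04 ± 0.13.

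Genes of the nuclear speckles, where MALAT1 gathers, gave no call. Of 22 on the list 21 were tested, 12 with a positive and 9 with a negative fold change, a median log2 fold change of 0.078 and 0 at an unadjusted p under 0.05. The most abundant was RBM25, a splicing regulator, with 365, 315 and 461 counts in siNC and 312, 427 and 473 in siSHMT2. Its log2 fold change was 0.23 ± 0.12. SRSF11 had 438 counts in siSHMT2 replicate 3 against 190 and 281 in the other siSHMT2 replicates, and its log2 fold change was -0.01 ± 0.13. SRRM2, a scaffold of speckles, had a log2 fold change of -0.05 ± 0.14.

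The genes that process the 3′ ends were mostly counted too low to test. Of 14 on the list 13 had a count and 5 were tested. RPPH1, the RNA subunit of RNase P, was at 0 in every library. METTL16, which binds the MALAT1 triple helix, had 11, 6 and 2 counts in siNC and 17, 12 and 15 in siSHMT2. The log2 fold change was 1.35 ± 0.50. In edgeR the unadjusted p was 0.010 and the adjusted p 0.999. ELAC2, the RNase Z that trims the tRNA-like RNA, had 22, 17 and 22 counts in siNC and 13, 12 and 14 in siSHMT2, with a log2 fold change of -0.49 ± 0.36. TRNT1, which adds CCA to tRNA ends, had a log2 fold change of -0.04 ± 0.12. The other 4 tested genes of the list besides METTL16 all had negative values, none at an unadjusted p under 0.05. That makes 1 of 5 beside 3.84% of all tested genes, and METTL16 had few counts.

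Other noncoding RNAs were set beside the counts as listed. Of 28 on the list 27 were listed by symbol, 17 had a count and 7 were tested. OIP5-AS1, a cytoplasmic lncRNA, had 490, 423 and 499 counts in siNC and 320, 509 and 495 in siSHMT2, more than MALAT1 in every library, and no other gene of the list exceeded MALAT1 in any. Per length it stood at an FPKM of 67.6 ± 4.51 in siNC against 68.6 ± 1.26 in siSHMT2 (SD, n = 3). NORAD, which sequesters PUMILIO proteins, stood at 40.1 ± 1.88 against 40.4 ± 13.0, and by count it lay below MALAT1 and NEAT1 in every library. H19 had a log2 fold change of 0.22 ± 0.23. RN7SL1, the RNA of the signal recognition particle, had 5, 9 and 15 counts in siNC and 24, 19 and 10 in siSHMT2, with overlapping groups. Its log2 fold change was 1.06 ± 0.45. In edgeR the unadjusted p was 0.023 and the adjusted p 0.999. Of the 7 tested genes of the list 1 was under 0.05 unadjusted, beside 3.84% of all tested genes. TALAM1 was above each of these in every library, both by count and by FPKM value.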

How the data were processed

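The 6 HT-1376 libraries were made in the study from total RNA after capture with mRNA beads, and were sequenced as paired ends. The submitters' processing notes name FastQC 0.11.9, fastp 0.23.4, HISAT2 2.2.1 and DESeq2 1.42.1 with GRCh38, whereas the program that counted reads, the strand it was set to and the release of its annotation are not given in the sources used here. The authors deposited raw counts per Ensembl gene, and FPKM values that equal the count divided by the listed gene length and the library total, with a largest relative difference of 2.3e-14. The 91 genes without a listed length have no FPKM and hold 11.8% to 13.1% of a library. The members all have a length.

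Symbols, positions, types and exons were taken from GENCODE release 44, which holds 62666 of the 63241 genes. Groups came from the labels. Counts were compared in R 4.3.3 with edgeR 4.0.16 (filterByExpr, TMM, two-sided quasi-likelihood test with no blocking) and adjusted by Benjamini-Hochberg over all genes tested. Log2 ratios within a library had 0.5 added to each count, while the ratios themselves are of the raw counts. Shares, ratios and FPKM values were compared by two-sided exact permutation tests over libraries. Library totals of 533689 to 890574 counts limit the precision of MALAT1 and NEAT1, and Wilson intervals cover counting error only, as reads without molecular identifiers are not independent molecules. Differences between replicates exceeded counting noise 1.78 to 2.63 times (chi-square per degree of freedom). The fits were tested on simulated counts.

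The alternatives were DESeq2 1.42.0, RLE factors, library size only, totals without the members, no filter, a minimum of 10 counts per library, limma 3.58.1 fitted to log2 FPKM (pseudocount 1 or 0.1), a replicate block, other denominators and pair limits, and each library left out. The sum of MALAT1 and TALAM1 and the block for library shares were added after the data were seen. The members and lists were chosen with earlier results of these data known. Genes were named by a rule: the members, SHMT2, genes overlapping the members, neighbours within 100 kb with at least 20 counts, from each list the 3 of highest mean CPM and any with an unadjusted p under 0.05, and the 3 genes most correlated with each member. Some genes that the rule names are not reported here. Figures were drawn with matplotlib 3.10.9.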

Additional observations from a re-analysis of the deposited data

How the results depend on the processing

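MALAT1 kept a positive log2 fold change in all 15 alternatives that keep it apart from TALAM1 (0.061 to 0.32, both ends from leaving out 1 library) and NEAT1 in all 15 (0.19 to 0.30). TALAM1 kept it in 14 of 15, at most 0.19, and was at -0.0047 without siSHMT2 replicate 1. No alternative gave a member an adjusted p under 0.05 (0.84 to 1.00). The unadjusted p in edgeR was under 0.05 for TALAM1 without siNC replicate 2 (0.017) and with the replicate block (0.032), for MALAT1 without siSHMT2 replicate 2 (0.025) and for NEAT1 without siSHMT2 replicate 2 (0.0499). The difference in library share between siSHMT2 and siNC was 0.0015 to 0.0099 percentage points for MALAT1, 0.0034 to 0.0068 for NEAT1 and -0.018 to 0.41 for TALAM1 over the fits without 1 library, with the negative value again without siSHMT2 replicate 1. The difference in the log2 ratio of TALAM1 to MALAT1 ran from -0.25 to 0.12 over these fits, and was positive without siSHMT2 replicate 3 (0.12) and without siNC replicate 2 (0.0084). That of NEAT1 to MALAT1 ran from -0.013 to 0.13, and was negative without siSHMT2 replicate 1 (-0.013) and without siSHMT2 replicate 2 (-0.00098). Genes at an unadjusted p under 0.05 numbered 277, against 117 with DESeq2, 699 without the filter (20836 genes tested) and 292 to 412 without 1 library. For the change of tool the cause was not tested. At an adjusted p under 0.05 there were 0, and 0 to 1 without 1 library, the 1 being without siSHMT2 replicate 3. The share of pairs with more counts under the lncRNA was 60.2%, against 72.5% with at least 100 counts in each gene and 75.0% with an overlap of at least 500 bases.

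The labels give same-numbered libraries of the 2 groups no tie beyond the number. Their deviations from the group means correlated at -0.015, 0.048 and -0.012. Many genes had few counts (median 25 over the tested genes), which limits such correlations, so they do not settle whether the libraries were paired. With the replicate block 304 genes had an unadjusted p under 0.05, the log2 fold changes were 0.22 for MALAT1, 0.10 for TALAM1 and 0.25 for NEAT1, and the adjusted p of each was 0.996 (edgeR). The difference in share with the block was 0.0063 percentage points for MALAT1, 0.23 for TALAM1 and 0.0051 for NEAT1, and no call changed. Counting error limits MALAT1 and NEAT1, with 161 to 448 counts a library, more than TALAM1.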
